A study of Mus musculus with 3 samples.

Results

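The genes described here are the transcription factors Bcl11a and Bcl11b and the core genes of activin signalling, namely the ligand subunits Inha, Inhba and Inhbb, the antagonists Fst and Fstl3, and the receptors Acvr1b, Acvr2a and Acvr2b. They were chosen by symbol, as an axis tied to Arid1b in incisor stem cells, and all 10 were found among the 19381 genes of the deposited table. Expression was measured by bulk RNA sequencing in 3 libraries of proximal incisor mesenchyme from mice labelled DKO. These mice carried a tamoxifen-inducible Cre recombinase driven by Gli1 (Gli1-CreER) together with floxed Arid1a and Arid1b (Arid1afl/fl and Arid1bfl/fl), were given tamoxifen at 1.5 mg per 10 g of body weight, and were sampled 4 days later at an age of 1 month. All 3 libraries shared this genotype and treatment. No library of another genotype was analysed here, so every value below is a level in DKO tissue and none is an effect of the deletion. The Cre acts in Gli1-expressing cells and their descendants only, while the RNA came from the whole proximal piece. It is not stated if each library was made from its own animal, so errors and tests cover the spread between these libraries alone, and that spread may be technical.

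Activins are secreted dimers of beta subunits, with Inhba encoding the beta A chain and Inhbb the beta B chain. They bind the type II receptors encoded by Acvr2a and Acvr2b, which then phosphorylate the type I receptor encoded by Acvr1b (ALK4). This receptor passes the signal to Smad2 and Smad3 or, in the non-canonical branch, to MAP kinases. Inha encodes the alpha subunit that pairs with a beta chain to make inhibin, which competes for the type II receptors, while follistatin (Fst) and follistatin-like 3 (Fstl3) bind activin outside the cell. In the mouse incisor, activin made by mesenchyme promotes growth of the epithelial stem cell niche and follistatin restricts enamel formation to the labial side. Bcl11a and Bcl11b are zinc finger transcription factors that associate with the NuRD and BAF chromatin complexes, and loss of Bcl11b disturbs ameloblast formation and the stem cell niche of mouse incisors.

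The start regions of Inhba and Inhbb are printed because these genes encode the alternative activin chains and stood farthest apart in level per kilobase of exon among the activin genes. Each is the 300 bases from 250 before to 50 after the RefSeq start, 5′ to 3′ on the gene's own strand (RefSeq, GRCm38.p6). Inhba lies at chr13:16011601-16011900 on the plus strand and Inhbb at chr1:119422199-119422498 on the minus strand. Capitals mark the match to TGACCA, a motif bound by the zinc fingers of BCL11A in human cells, and the match to TATAAA, the TATA box letters.
Inhba: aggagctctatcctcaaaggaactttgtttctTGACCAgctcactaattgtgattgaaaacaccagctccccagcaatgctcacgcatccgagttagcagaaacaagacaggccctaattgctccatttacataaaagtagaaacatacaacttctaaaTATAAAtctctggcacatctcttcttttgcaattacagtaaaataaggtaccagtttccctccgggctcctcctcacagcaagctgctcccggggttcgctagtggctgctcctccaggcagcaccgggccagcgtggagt
Inhbb: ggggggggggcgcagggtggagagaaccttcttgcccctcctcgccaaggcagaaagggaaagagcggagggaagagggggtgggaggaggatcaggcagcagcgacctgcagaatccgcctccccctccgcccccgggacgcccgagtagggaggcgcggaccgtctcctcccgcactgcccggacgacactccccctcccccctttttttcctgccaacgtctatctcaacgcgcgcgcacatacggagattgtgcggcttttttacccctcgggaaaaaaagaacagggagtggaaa
TGACCA was searched on both strands and stood 218 bases before the Inhba start. TATAAA was searched on the gene's strand and stood 91 bases before it. The matches do not overlap. Of 9 members with a RefSeq start region (Fst was not matched), Inhba was the only member with either motif, against 13.6% of all 32851 start regions for TGACCA and 8.32% for TATAAA. The SMAD box letters CAGAC, on either strand, were found in 6 of the 9 members and in 49.6% of all start regions, and the palindrome GTCTAGAC in 0 of 9 and in 0.213%. Inhba had 7 CpG dinucleotides in its 300 bases, the median of all start regions, and Inhbb had 23. These matches are letters in a window, not measured binding.

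The deposited columns had an equal 75th percentile of 44.7 and totals of 958773 to 986401 normalized counts, which are sums of scaled values and do not measure library size. Values are the deposited normalized counts, which are not divided by gene length. Markers of dental mesenchyme were present, 12 of 14 with a mean of at least 10, among them Prrx1 (619 ± 57.9) and Msx1 (240.1 ± 29.2), while Barx1 was at 0.560 ± 0.526 (SD, n = 3 each). Markers of dental epithelium also reached that mean in 10 of 12 cases, with Krt14 at 156 ± 34.1 and Cdh1 at 153 ± 27.3, so the tissue labelled mesenchyme also held epithelial RNA. The summed interferon-stimulated markers stood at 1630 in replicate 1, against 377 and 396 in replicates 2 and 3. In bulk tissue, fewer cells of a type and less RNA per cell cannot be told apart.

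Of the 10 members, 7 had a mean normalized count of at least 10, against 53.6% of all listed genes. The other 3, Inha, Inhbb and Acvr2b, had means of 4.51 to 5.21. The median of the members' means was 28.8, against 12.5 over all listed genes.

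**Figure D1:**
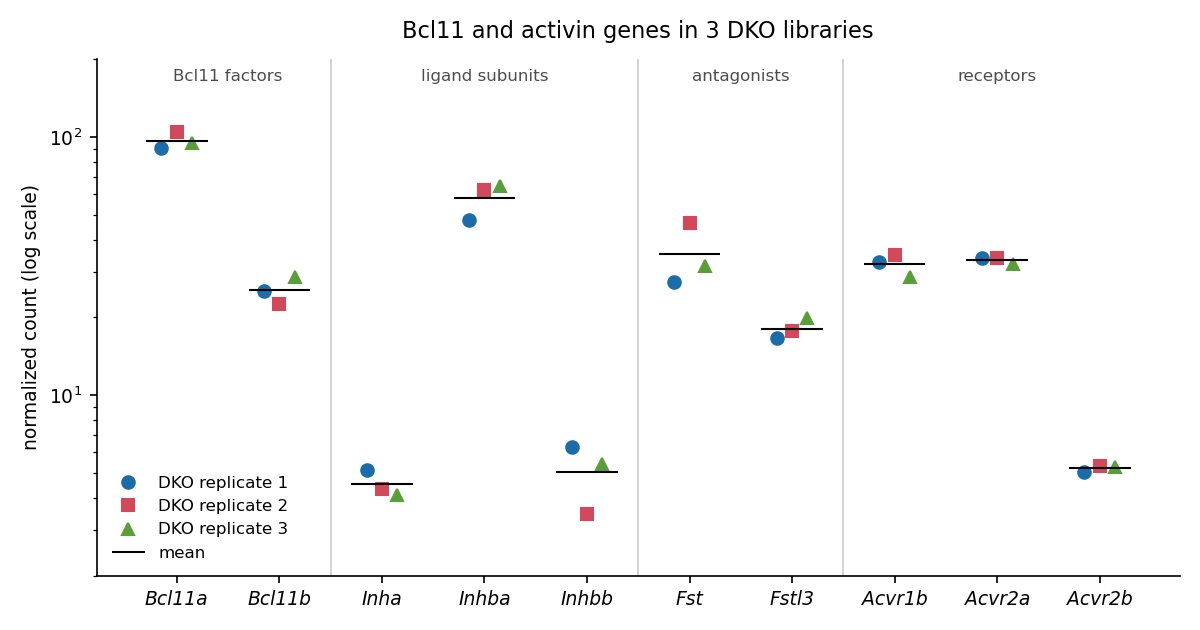
Normalized count (log axis) of each of the 10 genes in each DKO library, with a line at the mean of 3 libraries. The mean was 96.7 for Bcl11a and 4.51 to 5.21 for Inha, Inhbb and Acvr2b, and the libraries of a gene lay closest together for Acvr2a and Acvr2b and farthest apart for Fst and Inhbb.

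Transcripts of both Bcl11 factors were measured in every library. Bcl11a (chromosome 11, 24078056 to 24174124, mm10), which is best known for silencing fetal globin genes and for its roles in B lymphocytes and neurons, stood at 90.5, 105 and 94.8 normalized counts in replicates 1, 2 and 3 (96.7 ± 7.21, SD, n = 3). The 3 values lay within a ratio of 1.16, and the mean was at percentile 88.7 of all listed genes. Bcl11b (chromosome 12, 107910403 to 108003603), a T lymphocyte and ectodermal factor, stood at 25.3, 22.6 and 28.7 (25.5 ± 3.04), with its lowest value in replicate 2 and its highest in replicate 3. Its mean was at percentile 63.4.

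Per kilobase of annotated exon, Bcl11a had 7.34 ± 0.548 and Bcl11b 3.15 ± 0.375 normalized counts, and their ranges did not overlap. Within libraries the log2 difference of Bcl11b from Bcl11a per kilobase was -1.10, -1.46 and -0.99 (mean -1.18 ± 0.25), so Bcl11b was the lower of the pair in 3 of 3 libraries. Flipping signs exactly in a two-sided permutation test returned p = 0.25, the smallest value that 3 libraries allow, and 0.35 after Benjamini-Hochberg adjustment over 7 such differences. The annotated exons of Bcl11a add up to 13175 bases, while its longest transcript has 5989, and division by the longest transcript instead gave 16.1 ± 1.20 for Bcl11a and -2.32 for the log2 difference. Bcl11a thus made up 67.1% to 74.0% of the summed Bcl11 level per kilobase of exon.

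Because both factors are also lymphocyte genes, lymphocyte markers were read beside them. The T cell receptor complex genes Cd3e and Cd3g had means of 0.174 and 0.363 normalized counts, and Trac and Trbc2 of 0.811 and 0.235. Of 8 measured T lymphocyte markers, 2 reached a mean of 10, Thy1 at 21.3 ± 0.693, which mesenchymal cells also express, and Cd4 at 14.0 ± 4.82, which dendritic cells and some macrophages also express. The summed T lymphocyte markers were 35.5, 38.0 and 43.9 in replicates 1 to 3. Of 4 measured B lymphocyte markers, Cd79a and Cd79b were at 0.233 and 1.72 and only Ighm reached 10, at 14.0 ± 3.19. The summed B lymphocyte markers were 23.6, 17.1 and 26.7. Bcl11a was highest in replicate 2, where the B lymphocyte sum was lowest. Bcl11b was lowest in replicate 2 and highest in replicate 3, as the B lymphocyte sum was, while the T lymphocyte sum was lowest in replicate 1 and highest in replicate 3. Most of the T lymphocyte sum came from Thy1 and Cd4. Of the other T lymphocyte markers, Cd3e, Cd5, Lck and Trbc2 were highest in replicate 1, Cd3g in replicate 2 and Trac in replicate 3. Their means were low, at most 2.11 (Lck). Most of the B lymphocyte sum came from Ighm and Cd22 (mean 6.49), both lowest in replicate 2 and highest in replicate 3. Cd79a was instead highest in replicate 2 and lowest in replicate 3, and Cd79b was lowest in replicate 1 and highest in replicate 3. The part of lymphocytes in the Bcl11 levels was not tested.

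Most partners of Bcl11 were well expressed. Of 17 NuRD, COUP-TF and related partner genes, 16 had a mean of at least 10. The median level per kilobase of exon of the 17 was 25.7 normalized counts, against 7.34 for Bcl11a and 3.15 for Bcl11b. For Bcl11a this order depends on the measure. Its level was 16.1 per kilobase of the longest transcript. Without division by length, its mean of 96.7 was above the partners' median mean of 82.9, while that of Bcl11b (25.5) was below. The NuRD ATPases Chd3 and Chd4 were at 534 ± 53.3 and 417 ± 26.2 normalized counts, the histone-binding subunits Rbbp7 and Rbbp4 at 295 ± 16.2 and 259.6 ± 20.9, and the deacetylases Hdac2 and Hdac1 at 137 ± 4.88 and 105 ± 7.07. The COUP-TF genes, whose products gave Bcl11a and Bcl11b their earlier names as COUP-TF interacting proteins, were uneven. Nr2f2 was at 37.5, 45.4 and 43.9 and Nr2f6 at 25.1, 34.7 and 34.8, while Nr2f1 was at 2.01, 1.51 and 2.21. All 12 BAF subunits listed beside Bcl11 reached a mean of 10, from 19.7 for Bcl7b to 210.5 for Smarca2. They include the floxed genes Arid1a and Arid1b, at 132.8 ± 3.04 and 50.7 ± 0.156 normalized counts. Without a library of another genotype, these levels do not measure the deletion. Of the partner and BAF genes with a mean of at least 10, 0 had a log2 range above 0.5 over the libraries, against 8.12% of all such genes. Median means were 82.9 for the partners and 94.0 for the BAF genes. Ranges tended to be smaller at higher means, with a median of 0.23 among genes of like mean to Fstl3 and 0.16 to Bcl11a.

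Among the ligand subunits, Inhba had the highest level per kilobase in every library. Inhba (chromosome 13, 16011851 to 16031622) stood at 47.6, 62.1 and 64.5 normalized counts (58.1 ± 9.13, SD, n = 3), with replicate 1 below both others. Inhbb (chromosome 1, 119415465 to 119422249) stood at 6.29, 3.46 and 5.40 (5.05 ± 1.45), lowest in replicate 2. Inha (chromosome 1, 75507077 to 75510367) stood at 5.13, 4.31 and 4.10 (4.51 ± 0.542), highest in replicate 1. 
Per kilobase of exon, Inhba had 9.09 ± 1.43, Inha 3.06 ± 0.367 and Inhbb 1.19 ± 0.340 normalized counts. Inhba exceeded Inhbb by a log2 difference per kilobase of 2.15, 3.24 and 2.77 (mean 2.72 ± 0.54) and Inha by 0.87, 1.45 and 1.57 (mean 1.30 ± 0.37), in 3 of 3 libraries each, and the same exact permutation test gave p = 0.25 for both (adjusted 0.35). These differences are on the scale of log2(value + 1), which understates the lead of Inhba over the weakly expressed genes, and with a pseudocount of 10 the mean lead over Inha was 0.106. No library of Inhba overlapped those of the other subunits per kilobase. Inhba gave most of the beta chain signal, and Inhbb made up 16.6%, 7.73% and 11.2% of the summed beta subunits per kilobase in replicates 1, 2 and 3. The subunits did not share an order of libraries: replicate 1 was lowest for Inhba and highest for Inhbb and Inha.

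The antagonists were of like level per kilobase and differed in spread. Fst (chromosome 13, 114452290 to 114458952) stood at 27.5, 46.3 and 31.7 normalized counts (35.2 ± 9.91, SD, n = 3), and replicate 2 was the highest, 1.69-fold above replicate 1. Fstl3 (chromosome 10, 79777272 to 79782631) stood at 16.6, 17.7 and 19.9 (18.1 ± 1.66), within a ratio of 1.20. Per kilobase of exon Fst had 7.66 ± 2.16 and Fstl3 7.39 ± 0.678, and Fst lay below Fstl3 in replicates 1 and 3 and above it in replicate 2 (log2 differences -0.21, 0.43 and -0.26, mean -0.016 ± 0.39, exact sign-flip permutation p = 1, adjusted p = 1). Against Inhba, Fst differed by -0.29, 0.06 and -0.52 (mean -0.25 ± 0.30, exact permutation p = 0.5, adjusted 0.583). The sum of Fst and Fstl3 per kilobase was 1.72, 1.79 and 1.49 times the level of Inhba. With the longest transcript as length, Fst had 12.04 ± 3.39 per kilobase and exceeded Inhba by a log2 difference of 0.40, so the order of Fst and Inhba depends on the length used. The exons of Fstl3 overlap those of Prss57 on the other strand over 47.3% of their length. The strand setting of the counting is not given in the sources used here, and Prss57 itself was listed at 0.233, 0.0824 and 0.0932.

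Per kilobase, the receptors Acvr1b and Acvr2a stood near the antagonists, and Acvr2b was low. Acvr2a (chromosome 2, 48814109 to 48903270) stood at 33.8, 33.9 and 32.1 normalized counts (33.3 ± 0.990, SD, n = 3) and Acvr2b (chromosome 9, 119402118 to 119434996) at 5.04, 5.33 and 5.26 (5.21 ± 0.152). Both type II receptors had coefficients of variation under 3%, at 2.97% and 2.92%, the smallest among the members. Acvr1b (chromosome 15, 101174067 to 101213685) stood at 32.7, 34.9 and 28.7 (32.1 ± 3.17), lowest in replicate 3.

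Per kilobase of exon, Acvr1b had 7.27 ± 0.716, Acvr2a 5.85 ± 0.174 and Acvr2b 1.33 ± 0.0388 normalized counts. Acvr2b lay below Acvr2a by log2 differences of -1.99, -1.93 and -1.87 (mean -1.93 ± 0.06), and Acvr2a made up 80.8% to 82.3% of the summed type II receptors. Acvr1b exceeded Acvr2a by 0.32, 0.41 and 0.20 (mean 0.31 ± 0.10). Both differences had the same direction in 3 of 3 libraries, with an exact sign-flip permutation p = 0.25 (adjusted 0.35). Without division by length the second difference was -0.055. Exons of Orc4 overlap 446 bases of Acvr2a on the other strand, 7.84% of its exon length, and Orc4 stood at 43.2, 42.5 and 40.4 normalized counts.

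In the order of levels per kilobase of exon, 5 members at the top did not separate from their neighbours. Inhba (9.09) was followed by Fst (7.66), Fstl3 (7.39), Bcl11a (7.34) and Acvr1b (7.27), and each neighbouring pair overlapped over the libraries. Acvr2a (5.85) was apart from Acvr1b above it and from Bcl11b (3.15) below it. Bcl11b and Inha (3.06) overlapped, Inha was apart from Acvr2b (1.33), and Acvr2b and Inhbb (1.19) overlapped. Thus 3 of 9 neighbouring pairs were apart, and the highest mean was 7.65-fold the lowest. With the longest transcript as length, Bcl11a (16.1) and Fst (12.04) came first and 4 of 9 pairs were apart.

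**Figure D2:**
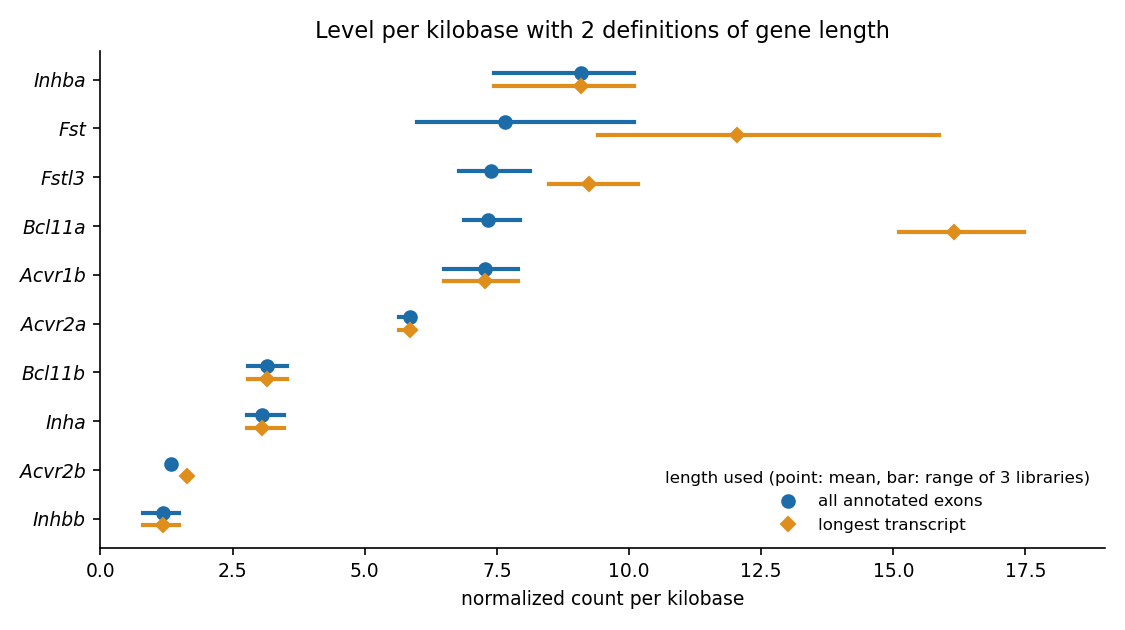
Normalized count per kilobase for each gene, ordered by the mean over 3 libraries with all annotated exons as length (circles), and with the longest transcript as length (diamonds); bars span the 3 libraries. With the longest transcript, Bcl11a stands at 16.1 in place of 7.34 and Fst at 12.04 in place of 7.66, while Inhba, Acvr1b, Acvr2a, Bcl11b, Inha and Inhbb keep their values.

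Among the 7 members with a mean of at least 10, the spread between libraries was widest for Fst. Of these, 1 (Fst, 0.73) had a log2 range above 0.5, against 8.12% of the 10388 genes with such a mean, and without replicate 2 the count was 0. The median log2 range was 0.28 for these 7 members and 0.19 for the 10388 genes. Among 3187 genes with a mean within a factor of 1.5 of that of Fst, 97.5% had a smaller range. The same share was 92.1% for Inhba (range 0.43), 76.3% for Bcl11b (0.33), 70.7% for Acvr1b (0.28) and 64.5% for Bcl11a (0.21). For Fstl3 (0.25) it was 53.3%, and for Inha (0.26) it was 31.3%. It was 86.4% for Inhbb (0.71), whose level is low and whose like genes also spread widely, with a median of 0.35. By coefficient of variation Inhbb (28.7%) and Fst (28.2%) were alike. At the other end, Acvr2a (0.07) exceeded 11.3% and Acvr2b (0.07) 3.34% of genes of like mean.

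**Figure D3:**
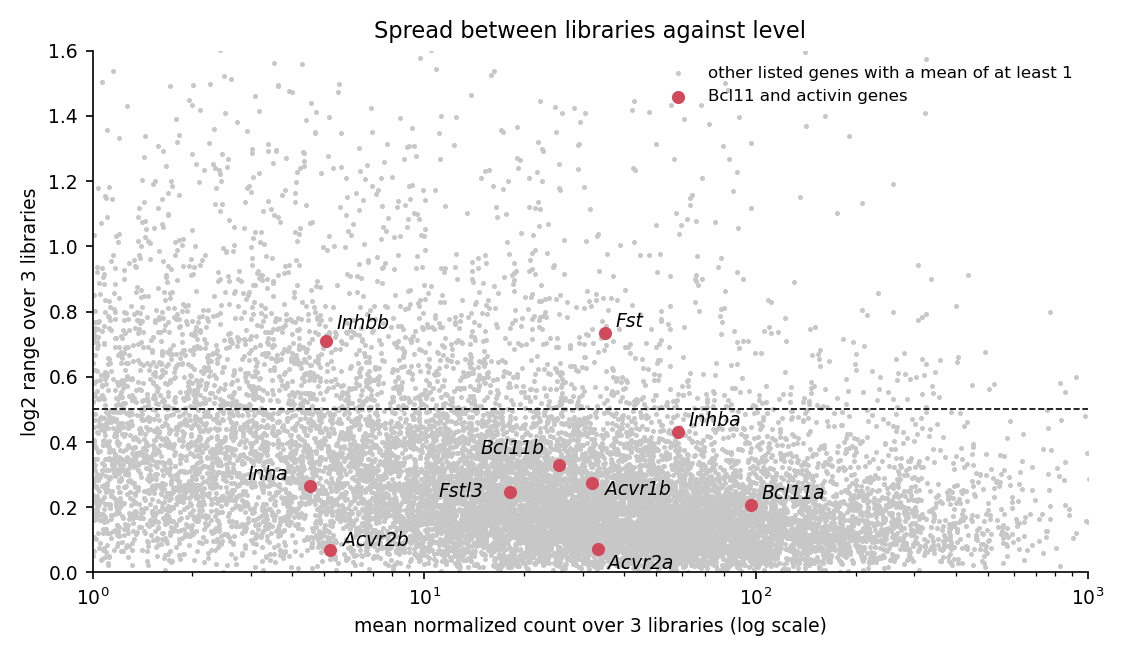
Log2 range over the 3 libraries against mean normalized count (log axis) for the 10 genes (red) and all other listed genes with a mean of at least 1 (grey; genes with a range over 1.6 or a mean over 1000 are not drawn), with a dashed line at 0.5. Fst at 0.73 and Inhbb at 0.71 lie above the line, and Acvr2a and Acvr2b at 0.07 lie near the bottom of the cloud.

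Which library was high differed from member to member. Of the 7 members with a mean of at least 10, replicate 1 held the top value for 0, replicate 2 for 4 and replicate 3 for 3, against 31.2%, 34.2% and 34.6% of all genes at that level. Lowest values fell in replicate 1 for 4, in replicate 2 for 1 and in replicate 3 for 2, against 38.1%, 27.8% and 34.2%. Markers of other cells moved between the same libraries. The 12 dental epithelium markers summed to 862, 1346 and 981, and 8 of the 10 with a mean of at least 10 were highest in replicate 2, as were Fst, Bcl11a, Acvr1b and Acvr2a. The odontoblast markers summed to 16301, 6485 and 18580, and 6 of 8 were lowest in replicate 2, as were Bcl11b and Inhbb. The macrophage markers summed to 857, 1147 and 1196, with 7 of 8 lowest in replicate 1, as were Inhba, Fst, Fstl3 and Bcl11a. Replicate 1 was also lowest for 7 of 12 dental mesenchyme and 5 of 10 dental epithelium markers with a mean of at least 10. The same held for 4 of 8 endothelial and 4 of 7 mural cell markers, but for only 1 of 8 odontoblast markers. The part of these cell types in the members' values was not tested.

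**Figure D4:**
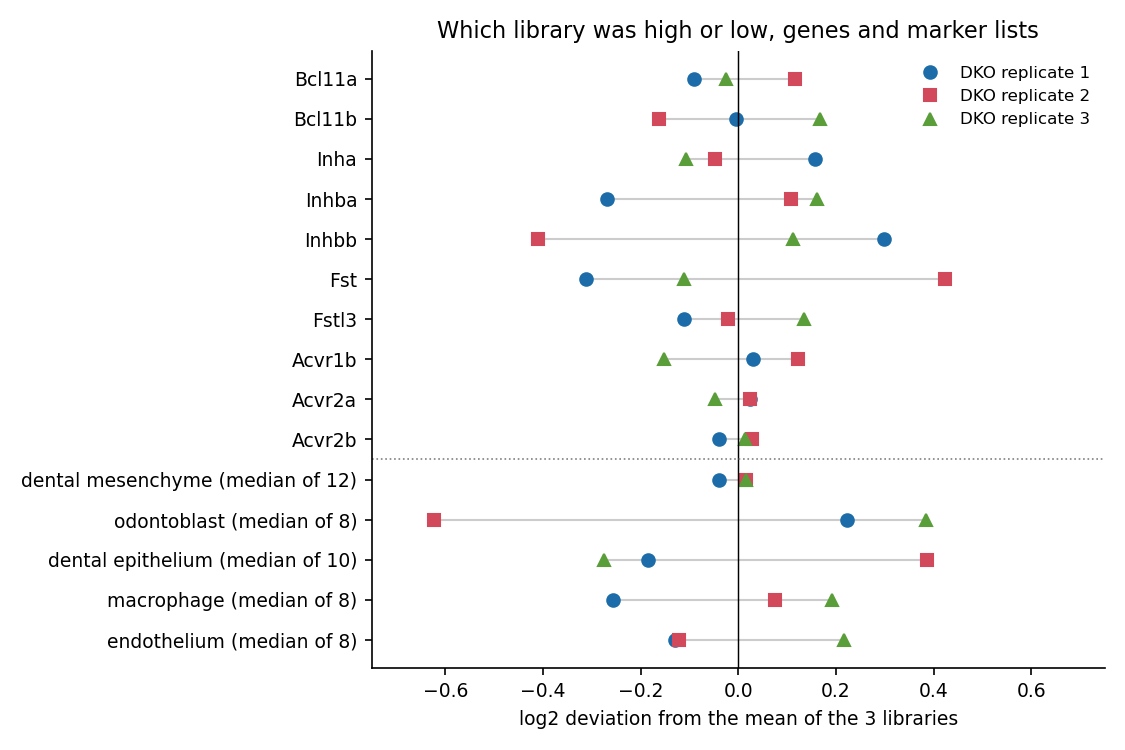
Log2 deviation of each library from the mean of the 3 libraries, for each of the 10 genes (above the dotted line) and for the median gene of 5 marker lists (below it). Fst and the dental epithelium median (0.42 and 0.39) are both highest in replicate 2, where Inhbb and the odontoblast median are both lowest.

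Genes with patterns like those of the members were sought among the 10388 genes with a mean of at least 10, by the Euclidean distance between log2 deviations over 3 libraries. With so few libraries many genes can lie near a member. The deviations were not scaled, so the distance also depends on spread, and genes of small range lie close together. Within a distance of 0.05 there were 869 genes for Acvr2a, 324 for Bcl11a, 317 for Fstl3 and 204 for Acvr1b. There were 94 for Bcl11b, 48 for Inhba and 1 for Fst, the member with the widest range of these. Among the genes nearest to Fst were Spp1, the matrix protein osteopontin, at 48.8, 87.5 and 59.7 normalized counts (distance 0.07), and Gm4737 (0.08). Nearest to Inhba were Tspan6, a tetraspanin, at 97.1, 126 and 132, Rsph3a, and Heyl, a Notch effector, at 17.0, 22.7 and 23.5 (0.01, 0.01 and 0.02). Nearest to Bcl11b were Mycbp, Tmem189 and Acox3, to Bcl11a Cdk12, Sh3bp5l and Snx24, to Fstl3 Mex3d, Abcc9 and Loxl1, to Acvr1b Tpt1, Ube2v2 and Oga, and to Acvr2a Sfr1, Zfp111 and Ilf2. The members did not lie close to each other by this measure. The smallest distance between members was 0.14, between Acvr1b and Acvr2a, with Acvr2a at place 1922 from Acvr1b. By place the nearest was Bcl11a, at place 800 from Fst, but at a larger distance of 0.39, as few genes lay near Fst.

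Other ligands of the family ranged widely around the activin subunits, and most other receptors stood above the activin receptors. Of 111 related genes in 10 lists, 105 were found and 89 had a mean of at least 10. Of 10 other ligands listed, 6 were measured. Tgfb3 was at 645 ± 35.6 normalized counts (191 ± 10.5 per kilobase) and Tgfb2 at 467 ± 49.2 (80.6 ± 8.49 per kilobase), against 9.09 ± 1.43 per kilobase for Inhba. Gdf11, which binds the activin type II receptors, was at 28.4 ± 3.20 and at 6.53 to 7.91 per kilobase, which overlaps the range of Inhba, 7.45 to 10.1, and Mstn was at 1.28, 3.02 and 1.40. Per kilobase, Mstn (0.703) and Gdf1 (0.022) lay below every activin subunit on average. Inhbc, Inhbe, Nodal and Gdf3 were not analysed here. The 11 other receptors measured had a median of 22.7 normalized counts per kilobase. Tgfbr2 was at 266 ± 13.4 and Tgfbr1 at 148 ± 11.0 normalized counts, with 32.4 and 22.7 per kilobase against 5.85 for Acvr2a and 7.27 for Acvr1b. Acvr1c (ALK7), the alternative type I receptor for activin B, was at 2.65, 1.15 and 1.98. Tgfbr3, the coreceptor that helps inhibin bind, was at 42.7, 34.1 and 38.6, and Bambi, a decoy receptor, at 409 ± 32.7.

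Most genes of the intracellular part of the pathway were well expressed. Of 14 measured SMAD transducers and regulators, 13 had a mean of at least 10 and 0 of these had a log2 range above 0.5, against 8.12% of all genes with such a mean. The other, Ldlrad4, had a mean of 9.33 and a range of 0.67. The median mean of the 14 was 97.8, and ranges tended to be smaller at higher means. The activin-responsive Smad2 and Smad3 were at 82.7 ± 1.86 and 98.8 ± 3.46 normalized counts and their partner Smad4 at 102 ± 4.25. The inhibitory Smad7 stood at 78.6, 78.7 and 79.2, and the corepressors Ski and Skil at 250.2 ± 12.6 and 142 ± 12.8. All 13 genes of the MAP kinase branch had a mean of at least 10, with Tab1 at 22.5 ± 0.729, and Map3k7 (TAK1) stood at 138, 142 and 140.1. Of 9 ERK feedback genes, 7 had a mean of at least 10, with Spred1 at 228 ± 16.1, Dusp6 at 63.1 ± 2.21 and Etv5 at 43.9 ± 1.22. These are transcript levels and hold no measure of phosphorylation.

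Several target genes of activin and TGF-beta varied between libraries. Of 10 with a mean of at least 10, 6 (Ccn2, Postn, Acta2, Tagln, Tgfbi and Col1a1) had a log2 range above 0.5, against 8.12% of all genes at that level, and 7 were lowest in replicate 1, against 38.1%. Smad7, Skil and Pmepa1, which are also listed among the SMAD regulators, did not pass that range. Ccn2, a matricellular factor, was at 139, 227 and 222 normalized counts and Postn, a matrix protein of ligament and periosteum, at 610, 1139 and 1337. Acta2 and Tagln, contractile genes that mural cells also express, were at 36.0, 57.3 and 43.0 and at 15.4, 25.7 and 19.5, highest in replicate 2 as Fst was. Tgfbi went the other way, at 508, 324 and 377, and Col1a1, which is also an odontoblast marker, was at 9950, 4719 and 13715. The targets are shared with other ligands of the family, and their link to Inhba or Fst was not tested.

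**Figure D5:**
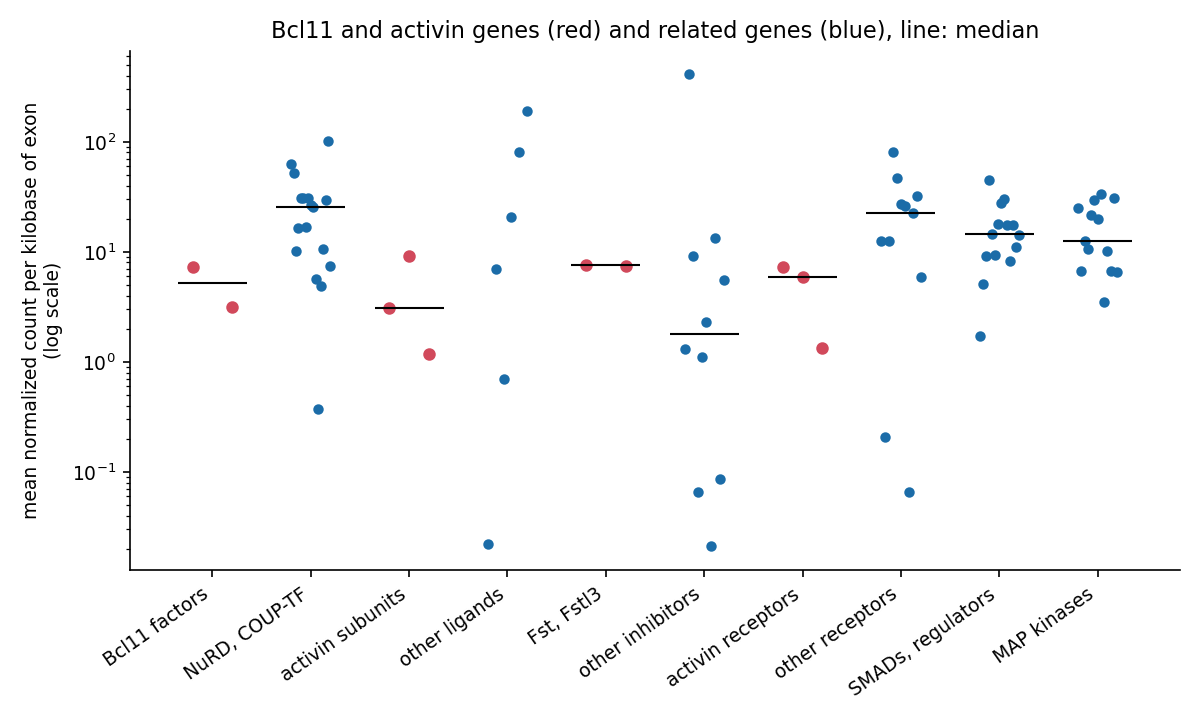
Mean normalized count per kilobase of exon (log axis) of Bcl11 and activin genes (red) and of related genes by role (blue), with a line at the median of the measured genes of each list (none for the other ligands, of which 6 of 10 were measured). All 3 activin receptors lie below the median of the other receptors (22.7), and both Bcl11 factors lie below the median of their partners (25.7). Without division by length, the mean of Bcl11a (96.7) is above the median of its partners (82.9).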

How the data were processed

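Total RNA was isolated with a Qiagen RNeasy Micro Kit from proximal incisors, per the labels' protocols. The deposited values are a gene-level signal that the deposited table calls normalized counts. Reads were aligned with TopHat2 2.0.8 to mm10, per the submitters' processing notes, while for the counter, annotation, strand setting and filters nothing is given in the sources used here. The 75th percentile was equal in the 3 columns and no value was 0. Low values, taken as those not above 20 times the smallest, were whole multiples of it (within 0.1) in 82.4% to 82.6% of cases, short of the 95% required to recover reads. Depth is therefore unknown and no count model was used. Each column was assigned by the number that its name shares with a library name.

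Exon lengths came from GENCODE M21 (GRCm38, the same build as mm10), found for 18985 genes, with overlapping exons counted once. Logarithms were log2(value + 1). Differences within libraries were tested by exact permutation, flipping signs, two-sided, with Benjamini-Hochberg adjustment over 7 differences, a design that cannot reach 0.05. Ranges were compared with genes whose mean lay within a factor of 1.5. Lists are described by counts and medians. Related genes were named by a rule: the members, list genes with a mean of at least 10, ligands, receptors, inhibitors, SMAD, lymphocyte and epithelium genes of any level, and the 3 genes nearest in pattern. Some genes that the rule allows are not reported here. Nr2f1, Barx1 and the overlapping genes Prss57 and Orc4 fall outside it and were named after their values were seen. The members and lists were chosen with earlier results of these data known. The range calculation was tested on simulated data. Python 3.11.15, numpy 2.4.6 and pandas 2.3.3 were used. Alternatives were another pseudocount, scaling, length or minimum mean, and leaving out each library.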

Additional observations from a re-analysis of the deposited data

How the results depend on the processing

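Bcl11b below Bcl11a, Inhba above Inhbb and Inha, and Acvr2b below Acvr2a kept their direction under every pseudocount, length, scaling and left-out library tried, but not their size. With a pseudocount of 10, Inhba minus Inha was 0.11 in place of 1.30, Inhba minus Inhbb 1.59 in place of 2.72 and Acvr2b minus Acvr2a -0.98 in place of -1.93. Without division by length, Inhba minus Inha was 3.41 and Bcl11b minus Bcl11a -1.88 in place of -1.18, and the second was -2.32 with the longest transcript. Fst minus Fstl3 turned to 0.016 with a pseudocount of 0.1, 0.89 without division by length and 0.31 with the longest transcript, and ranged from -0.24 to 0.11 with a library left out. Fst minus Inhba became 0.40 with the longest transcript, and Acvr1b minus Acvr2a became -0.055 without division by length, where 5 rather than 3 neighbouring members were apart. The order by longest transcript, with 4 apart, was chosen after seeing the data. The count of members with a log2 range above 0.5 was 0 to 1 with a library left out, 0 without replicate 2. With a minimum mean of 100 instead of 10, members numbered 0 instead of 7 and related genes 40 instead of 89, since fewer genes reach it. Mean levels of the members moved by at most 15.9% (Fst) over scalings and left-out libraries. The changes with length follow from the lengths used, such as 13175 or 5989 bases for Bcl11a and 4589 or 2921 for Fst. For the changes with left-out libraries, the cause was not tested. No comparison of groups was possible because the labels give 1 group. Unknown depth limits statements on genes near 1.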

Other observations

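The follistatin-like relatives of Fst and Fstl3 spanned a wide range. Fstl1, a secreted glycoprotein of mesenchyme that shares the follistatin domain, was at 1869, 2046 and 2126 normalized counts in replicates 1, 2 and 3 (410 per kilobase of exon on average, against 7.66 for Fst). Fstl4 stood at 28.4, 46.5 and 46.4, lowest in replicate 1, and Fstl5 had a mean of 0.607. Wfikkn2, an inhibitor of Gdf11 and Mstn, stood at 25.5, 16.6 and 22.2 and was lowest in replicate 2, where Fst was highest, while its relative Wfikkn1 had a mean of 0.218. The BMP antagonist Nog was at 22.5 ± 1.51 and Grem1 at 4.57 ± 0.505.

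The proprotein convertases, enzymes of the group that cuts activin precursors to their active form, were all measured. Furin was at 231, 241 and 264 normalized counts and Pcsk5 at 194, 201 and 243, with Pcsk6 and Pcsk7 at 28.1 ± 3.56 and 25.1 ± 0.987. All 4 were highest in replicate 3, as Inhba was, against 34.6% of genes with a mean of at least 10, and 7 of 8 endothelial markers were also highest there, with a sum of 516 against 390.0 and 389.9 in replicates 1 and 2. The part of vascular cells in these values was not tested.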
